A study of Homo sapiens with 14 samples.

Results

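The genes described here are 39 chemokines, cytokines and response genes of the transcription factor NF-kB, measured in A172 and U87-MG cells after knockdown of the long non-coding RNA LINC00152. A probe belonged to the group when the RefSeq accession that the array file gives for it maps to a listed gene, which gave 53 probes for the 39 genes, of 29033 named probes for 20992 genes and 50599 probes in all. A172 and U87-MG are established human glioblastoma cell lines. Cells of each line were electroporated with a negative control siRNA or with siLINC00152, an siRNA against exon 1 of the RNA, and total RNA was taken after 40 h by the labels, while the study's methods give a longer time. RNA was hybridised to 1-colour Agilent arrays, with 3 control and 3 siLINC00152 arrays of A172 and 4 and 4 of U87-MG, 14 arrays in all. The labels number the arrays of each group by set, and the study's methods describe the replicates of each line as independent. A control and a siLINC00152 array of the same set number are called a pair below. This pairing is read from the numbers and is not stated in the labels or the methods.

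NF-kB dimers are held in the cytoplasm by inhibitor proteins until a kinase complex marks those inhibitors for degradation, after which the dimers enter the nucleus and bind DNA. Signals of interleukin 1, interleukin 17 and tumour necrosis factor act through this route, and its targets include chemokines that attract neutrophils and monocytes, growth factors for myeloid cells, acute phase proteins and the inhibitors themselves. In glioblastoma, such secreted factors are known for their part in drawing myeloid cells into the tumour.

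Values are log2 processed signals minus the 75th percentile of the same array, so that 0 is the 75th percentile of its spots. A gene stands with its brightest probe over all arrays unless another is named. The share of spots well above background ran from 57.3% to 69.0% for A172, and the U87-MG arrays had 35.7% to 48.3%. The 75th percentile of the signal itself was 131 to 284 for A172, and U87-MG had 33.0 to 69.0. The 2 arrays of U87-MG set 3 stood apart from the other U87-MG arrays, with 35.7% and 40.4% of spots above background. Each A172 slide held the control and the siLINC00152 array of 1 set, and all U87-MG arrays lay on 1 further slide. Levels in the lines are therefore given as a description, because line and slide cannot be told apart.

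The probe for LINC00152 was read first, as a check of the knockdown. In A172 it read 2.63, 2.44 and 2.48 on the control arrays and 0.23, -0.42 and -0.10 on the siLINC00152 arrays of sets 1 to 3. In U87-MG it read 1.94, 1.83, 1.71 and 1.82 on the control arrays and -1.21, -0.88, -0.74 and -0.79 on the siLINC00152 arrays of sets 1 to 4. Control and knockdown arrays did not overlap in either line. LINC00152 fell, with a log2 fold change of -2.61 in A172 (SE 0.24, adjusted p = 0.000730) and -2.73 in U87-MG (SE 0.21, adjusted p = 5.0e-05).

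The labelled cell type was set against its markers. NES and VIM, which code for nestin and vimentin, and CD44, a hyaluronan receptor, were well above background on every array of both lines. GFAP, the intermediate filament of astrocytes, was above background on 1 A172 control array and on no U87-MG array. S100B, another astrocyte marker, was above background on no array, and SOX2 on all A172 arrays but on no U87-MG array. OLIG2 was so on all A172 arrays and on 2 control arrays and 1 siLINC00152 array of U87-MG. AQP4 was so on no A172 array and on 1 control array and 1 siLINC00152 array of U87-MG. Of 7 leukocyte markers 5 were tested in A172 and 4 in U87-MG, among them PTPRC, CD14, CD68 and CD3E in both lines, and no leukocyte marker passed the thresholds with or without pairs. Their log2 fold changes by the brightest probes lay within -0.11 to 0.12 for A172, and U87-MG gave -0.15 to 0.22. Another PTPRC probe, above background on all A172 arrays, gave -0.52 there, lower in 3 of 3 pairs (adjusted p = 0.540 with pairs). Of the 3 endothelial markers, CDH5 and VWF were above background on all arrays with fold changes between -0.24 and 0.02, and PECAM1 was so on all A172 arrays (-0.06) and on no U87-MG array, and the epithelial markers EPCAM and CDH1 were tested in neither line.

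Testing in a line required a probe to be well above background on 3 or more arrays of the control or the knockdown group. By the brightest probe over all arrays this held for 22 of 39 members in A172 and for 16 in U87-MG, and IL1R1 also met it in U87-MG by its other probe alone, which is not in these counts. In A172, 20 members were above background on every array and 12 on none, and in U87-MG 12 and 20. Members tested in both lines numbered 15, with 7 tested in A172 only, 1 in U87-MG only (TNFAIP3) and 16 in neither.

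**Figure D1:**
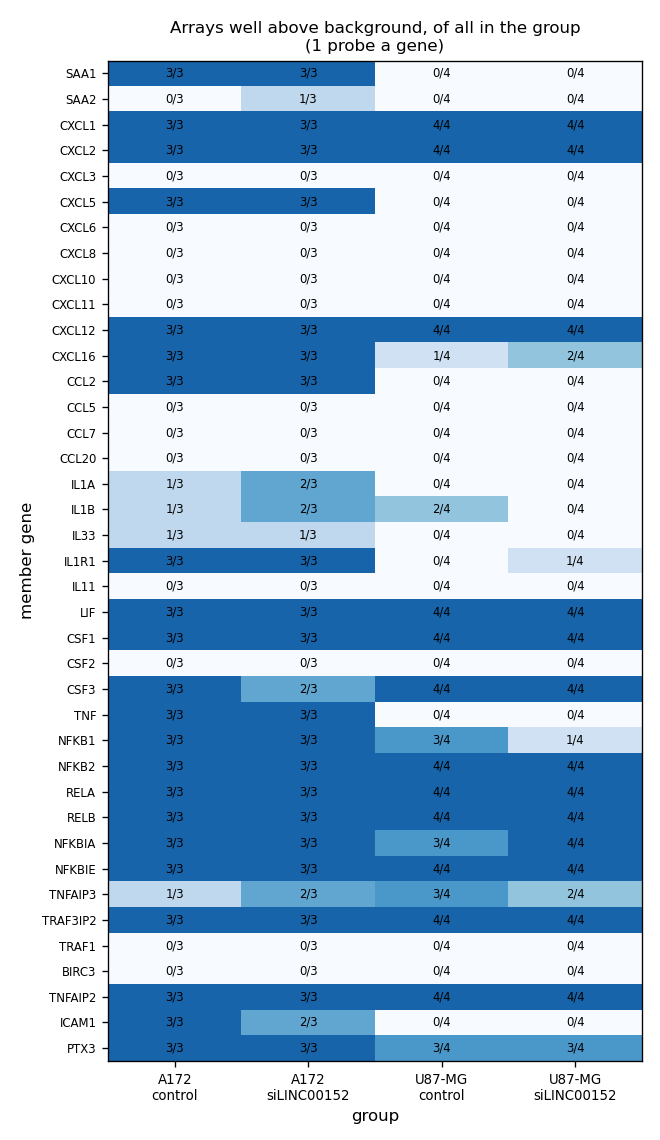
Number of arrays of each group (columns) on which the brightest probe of each of the 39 members (rows) was well above background. Darker cells mark a larger share of the arrays. CXCL1, CXCL2, CXCL12, LIF, CSF1, NFKB2, RELA, RELB, NFKBIE, TRAF3IP2 and TNFAIP2 were above background on every array, whereas SAA1, CXCL5, CCL2 and TNF were so on all A172 arrays and on no U87-MG array.

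Without the pairing, no member passed an FDR of 0.2 with an absolute log2 fold change above 0.5 in limma. In A172 the count was 0 of 22 members, beside 52 of 28287 probes or 0.184%, and 2 members had an unadjusted p under 0.05, CXCL5 and SAA1, beside 2.28% of all probes. In U87-MG it was 0 of 16 members, beside 11 of 21878 probes or 0.0503%, and 0 members had an unadjusted p under 0.05, beside 2.31%. The arrays of a set deviated together in both lines, and with the set as a block 4 calls appeared. In A172 CXCL5 and TNFAIP2 fell, 2 of 22 members beside 2.18% of all probes, and SAA1 rose, 1 of 22 beside 1.09%. In U87-MG CSF1 rose, 1 of 16 members beside 2.12% of all probes, and 0 members fell beside 2.08%. With the slide as a block, which pairs the A172 arrays by set but not the U87-MG arrays, SAA1 was the only member called in A172. That was 1 of 22 members, beside 0.343% of all probes. An unadjusted p under 0.05 with pairs was found for 7 of 22 members in A172, beside 10.7% of all probes, and for 4 of 16 in U87-MG, beside 16.9%.

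The direction within pairs was counted as a description. In A172, 8 members were lower in every pair (CXCL5, CCL2, NFKB1, RELB, NFKBIA, TRAF3IP2, TNFAIP2 and PTX3) against 16.9% of all probes, and 2 were higher in every pair (SAA1 and CXCL12) against 19.4%. In U87-MG, 3 were lower in every pair (CXCL2, NFKB1 and TRAF3IP2) against 13.9%, and 2 were higher (CSF1 and RELA) against 16.6%, a count that was 1 with quantile normalization and with the deposited values. By their brightest probes NFKB1 and TRAF3IP2, 2 of the 15 members tested in both lines, were lower in all pairs of both, beside 3.4% of all probes. The median log2 fold change of the tested members was -0.13 in A172, beside 0.021 over all probes, and -0.023 in U87-MG, beside -0.017. The A172 median depended on the background correction, since with normexp it was -0.023, beside 0.029 over all probes.

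**Figure D2:**
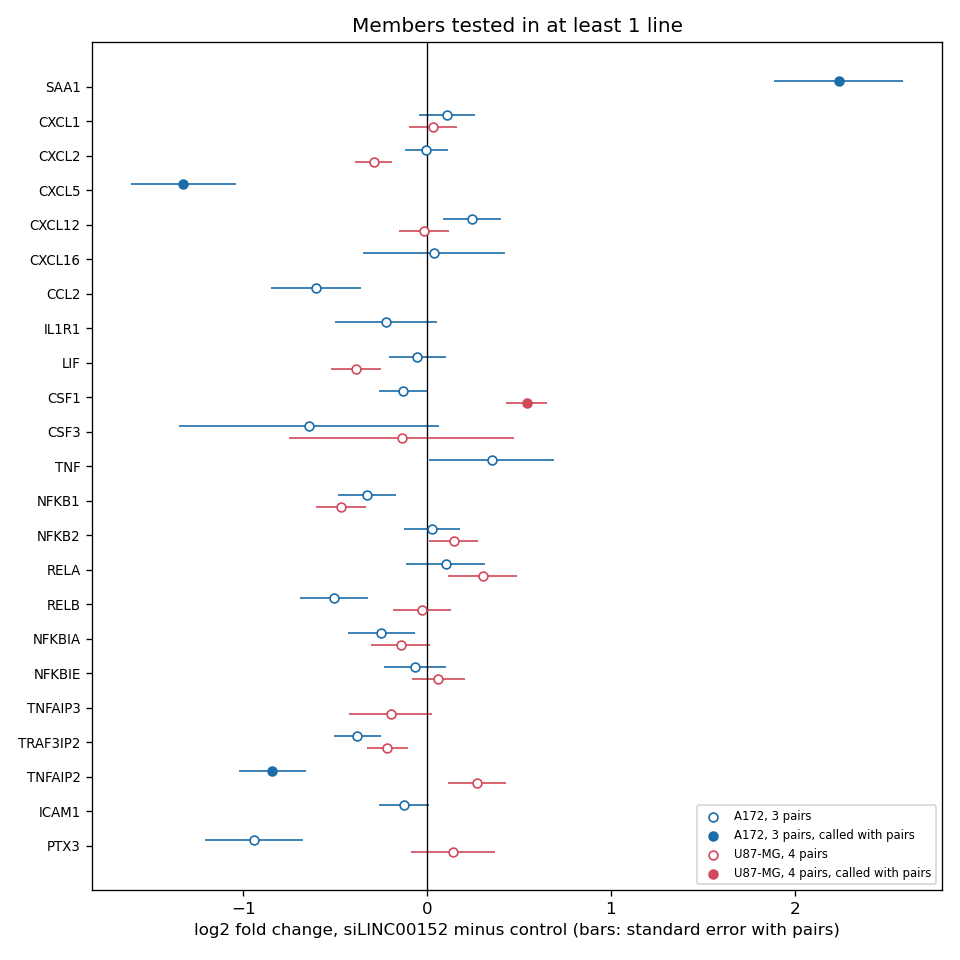
Log2 fold change (horizontal axis, siLINC00152 minus control) of the members tested in at least 1 line, A172 in blue and U87-MG in red, with the standard error from the model with pairs as bars and filled points for genes called in it. SAA1 lies at 2.24 and CXCL5 at -1.33 in A172, while CSF1 lies at 0.54 in U87-MG.

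SAA1 codes for serum amyloid A1, an acute phase protein that binds high-density lipoprotein. In A172 its probe read -1.19, 1.39 and -0.20 on the control arrays and 1.87, 2.66 and 2.19 on the siLINC00152 arrays. All knockdown arrays lay above all control arrays, and the control arrays were spread more widely (SD 1.30, against 0.40). The log2 fold change was 2.24 with an SE of 0.52 and an adjusted p of 0.316, and with pairs the SE was 0.35 and the adjusted p 0.0339, with 3 of 3 pairs higher. With pairs the call was lost without set 3 of A172 and was made under all 8 other settings run, with adjusted p between 4.97e-05 and 0.107. On the U87-MG arrays SAA1 was not well above background, with readings from -3.52 to -2.34. SAA2, the neighbouring acute phase gene, was above background on 1 A172 knockdown array and on 0 of the 3 control arrays, and the readings of the groups overlapped.

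The ligands of the receptor CXCR2, which guide neutrophils, were 6 in number. CXCL3, CXCL6 and CXCL8 (interleukin 8) were well above background on no array of either line. CXCL5, made by epithelial and tumour cells, read -0.78, -1.22 and -1.12 on the A172 control arrays and -2.29, -2.41 and -2.40 on the siLINC00152 arrays. The groups were far apart compared with their spread, with SDs of 0.23 and 0.06. CXCL5 fell in the model with pairs (log2 fold change -1.33, SE 0.29, adjusted p = 0.0989, 3 of 3 pairs lower), and the adjusted p without pairs was 0.233. With pairs this call was lost when any of the 3 A172 sets was left out, and 4 of the 8 other settings did not make it, with adjusted p up to 0.717. Over the 8 settings the fold change ran from -1.33 to -0.59, the latter with normexp, where the call was made. In U87-MG CXCL5 was above background on no array.

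CXCL1 and CXCL2 are close relatives of CXCL5 and were above background on all 14 arrays. For CXCL1 the fold change was 0.11 in A172 (SE 0.15 with pairs), and U87-MG gave 0.03 (SE 0.13). CXCL2 had a fold change of -0.004 in A172. In U87-MG it read 1.58, 1.63, 1.69 and 1.13 on the control arrays and 1.16, 1.46, 1.36 and 0.89 on the siLINC00152 arrays. The ranges overlapped, although all 4 pairs were lower, and the fold change of -0.29 (SE 0.10 with pairs) had an adjusted p of 0.222. Each of the genes has a further probe, which was above background on no array for CXCL1 and on 1 U87-MG control array for CXCL2.

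The promoters of these chemokines are shown because CXCL5 and its relatives CXCL1 and CXCL2 lie near each other on chromosome 4 and gave different readings, and that of TNFAIP2 because it also fell in A172. The sequences are the 250 bases before the gene's start in RefSeq GRCh38.p14, 5′ to 3′ on the strand of the gene, with capitals for matches to the NF-kB consensus decamer on either strand. They lie at chr4:73869143-73869392 on the plus strand for CXCL1, chr4:74099196-74099445 on the minus strand for CXCL2, chr4:73998678-73998927 on the minus strand for CXCL5 and chr14:103123211-103123460 on the plus strand for TNFAIP2.
CXCL1: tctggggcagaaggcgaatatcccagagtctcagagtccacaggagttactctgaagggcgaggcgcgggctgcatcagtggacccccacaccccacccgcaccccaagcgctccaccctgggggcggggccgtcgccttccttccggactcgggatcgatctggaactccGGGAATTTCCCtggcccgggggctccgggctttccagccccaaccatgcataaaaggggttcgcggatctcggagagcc
CXCL2: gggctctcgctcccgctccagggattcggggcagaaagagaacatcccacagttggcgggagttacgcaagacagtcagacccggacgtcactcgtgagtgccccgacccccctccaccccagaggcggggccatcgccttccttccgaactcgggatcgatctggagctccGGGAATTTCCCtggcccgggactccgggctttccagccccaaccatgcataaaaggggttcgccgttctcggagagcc
CXCL5: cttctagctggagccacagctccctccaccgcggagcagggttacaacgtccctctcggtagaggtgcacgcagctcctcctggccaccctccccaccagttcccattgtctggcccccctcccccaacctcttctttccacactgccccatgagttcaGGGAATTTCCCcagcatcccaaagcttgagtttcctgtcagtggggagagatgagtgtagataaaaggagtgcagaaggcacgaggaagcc
TNFAIP2: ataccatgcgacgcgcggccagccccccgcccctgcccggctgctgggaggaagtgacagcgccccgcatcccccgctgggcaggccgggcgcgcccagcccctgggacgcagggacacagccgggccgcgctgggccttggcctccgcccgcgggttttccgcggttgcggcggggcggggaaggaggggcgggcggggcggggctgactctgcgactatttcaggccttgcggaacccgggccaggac
CXCL1, CXCL2 and CXCL5 held the same 11 bases in capitals, from overlapping matches on opposite strands that begin 79, 78 and 91 bases before the start. TNFAIP2 held no match in this window. Of the 39 members, 29 matched the table by symbol with 41 promoters, and 15 of these or 36.6% held the consensus, beside 3498 of 35116 promoters or 9.96%. The members were listed partly as NF-kB response genes, so this share is no test of the list. The 10 without a promoter there include SAA1 and CSF1, which are therefore not shown. A match is a description of the letters and was not tested as a binding site.

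Of the other CXC chemokines, CXCL10 and CXCL11, ligands of CXCR3, were above background on no array. CXCL12, the ligand of CXCR4, was higher in all 3 A172 pairs, with a fold change of 0.24 (SE 0.16 with pairs, adjusted p = 0.756), and stood at -0.02 in U87-MG. Another CXCL12 probe tested in both lines gave -0.07 and -0.37, and in U87-MG it was lower in 4 of 4 pairs (adjusted p = 0.261 with pairs). The array file assigns both to the same CXCL12 transcript. Probes for other CXCL12 transcripts were tested in neither line, and 1 was above background on no array. The other was so on 1 control and 1 siLINC00152 array of A172 only. It gave -0.26 there, lower in 3 of 3 pairs. CXCL16, a membrane-bound chemokine, had a fold change of 0.04 in A172 and was above background on 3 of the 8 U87-MG arrays.

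Of the CC chemokines, CCL5, CCL7 and CCL20 were above background on no array. CCL2, which attracts monocytes, read -2.90, 0.35 and -1.01 on the A172 control arrays and -3.25, -0.79 and -1.33 on the siLINC00152 arrays. The sets differed far more than the treatments, and the groups overlapped although all 3 pairs were lower. The fold change was -0.61 with an SE of 0.70 without pairs and 0.25 with pairs (adjusted p = 0.419), and with pairs it was -0.34 without set 2. In U87-MG CCL2 was above background on no array.

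Among interleukin 1 genes, IL1A, IL1B and IL33 were above background on 3, 3 and 2 of the 6 A172 arrays and on 0, 2 and 0 of the 8 U87-MG arrays, and were tested in neither line. For IL1B the 2 U87-MG arrays above background were control arrays. The receptor IL1R1 had a fold change of -0.22 in A172 (SE 0.28 with pairs), from pairs of -1.01, -0.06 and 0.41. Its other probe was above background on 6 of the 8 U87-MG arrays and gave -0.0006 there.

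LIF, a cytokine that signals through gp130, stood at -0.05 in A172, and U87-MG gave -0.39, lower in 3 of 4 pairs with an adjusted p of 0.222 with pairs. The other LIF probe gave -0.38 in U87-MG and was lower in all 4 pairs. IL11, from the same family, was above background on no array.

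CSF1 codes for macrophage colony stimulating factor. In U87-MG its brightest probe read 3.37, 3.56, 2.83 and 3.48 on the control arrays and 3.85, 4.14, 3.51 and 3.90 on the siLINC00152 arrays. Set 3 was lowest in both groups, and the groups overlapped only through the siLINC00152 array of that set. CSF1 rose in the model with pairs (log2 fold change 0.54, SE 0.11, adjusted p = 0.0900, 4 of 4 pairs higher), against an adjusted p of 1.00 without pairs. With pairs the call was lost when any of the 4 U87-MG sets was left out, the fold change without set 3 being 0.49. It was made under 6 of the 8 other settings, with adjusted p from 0.00603 to 0.255, and not with no filter or at an FDR of 0.05. The call was also not made with a mean of the probes, which is not among the 8. The array file assigns the 3 CSF1 probes to different CSF1 transcripts, and their readings disagreed. Another probe gave 0.56 (adjusted p = 0.165 with pairs, 4 of 4 higher) and the remaining one -0.19, lower in 4 of 4 pairs. In A172 the brightest probe gave -0.13 and the other 2 gave -0.06 and -0.16.

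**Figure D3:**
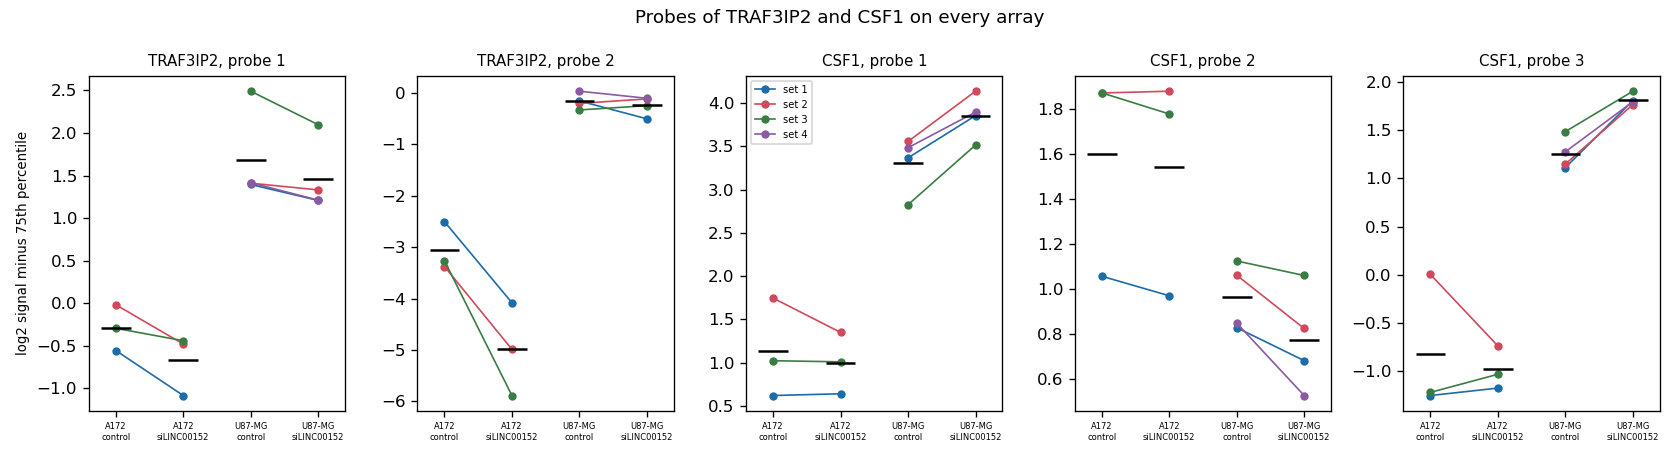
Log2 signal minus the 75th percentile (vertical axis) of the 2 probes of TRAF3IP2 and the 3 of CSF1 on every array, with arrays of a set joined and group means as black bars. In U87-MG, CSF1 probes 1 and 3 are higher in all 4 pairs and probe 2 is lower in all 4, and TRAF3IP2 probe 2 is lower in all 3 A172 pairs.

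CSF3, granulocyte colony stimulating factor, had a control mean of -2.67 in A172, and its U87-MG control mean was 2.63. Its fold changes were -0.64 and -0.14 with SEs of 0.71 and 0.61 with pairs, and pairs went both ways in each line. The A172 pairs were 1.07, -3.27 and 0.28, so that the sign of the mean came from set 2, where the siLINC00152 array read -5.11 and was not above background. The other CSF3 probe, above background on all arrays, gave -0.17 and -0.27. CSF2 was above background on no array. TNF had a fold change of 0.35 in A172 (SE 0.34 with pairs), from pairs of 0.91, 0.24 and -0.09, and was above background on no U87-MG array.

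All 4 NF-kB subunit genes in the list were tested in both lines. NFKB1, which codes for p105 and its product p50, read -1.40, -1.33 and -1.50 on the A172 control arrays and -2.01, -1.47 and -1.73 on the siLINC00152 arrays. In U87-MG it read -1.60, -1.89, -2.24 and -2.12 on the control arrays and -2.02, -2.00, -2.97 and -2.72 on the siLINC00152 arrays. Every pair was lower, and the groups overlapped in both lines. The fold changes were -0.33 and -0.47 with SEs of 0.16 and 0.14 and adjusted p of 0.552 and 0.173 with pairs, and the U87-MG value stayed under the size threshold. Other settings with pairs gave -0.33 to -0.14 for A172, while U87-MG had -0.55 to -0.10 with a call under 2 of 7 settings, and normexp gave the smallest size in both. In U87-MG NFKB1 was above background on 3 control arrays and 1 siLINC00152 array.

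RELA, the p65 subunit, read 1.79, 2.04, -0.52 and 1.81 on the U87-MG control arrays and 1.81, 2.14, 0.50 and 1.87 on the siLINC00152 arrays. Set 3 was low in both groups, and all 4 pairs were higher. The fold change was 0.30 (SE 0.19 with pairs, adjusted p = 0.434), and 0.06 without set 3. In A172 it was 0.10. The other RELA probe, above background on all arrays, gave 0.28 in U87-MG (adjusted p = 0.339 with pairs), with pairs of 0.08, 0.49, 0.10 and 0.44, and -0.10 in A172. RELB, a subunit of the non-canonical branch, was lower in all 3 A172 pairs at -0.51 (SE 0.18 with pairs, adjusted p = 0.349) and stood at -0.03 in U87-MG. NFKB2, the precursor of p52, gave 0.03 and 0.15.

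Of the inhibitors, NFKBIA (I-kappa-B alpha) had a fold change of -0.25 in A172, mostly from set 1 (pairs of -0.59, -0.02 and -0.13), and U87-MG gave -0.14, lower in 3 of 4 pairs. NFKBIE, a related inhibitor, gave -0.07 and 0.06. TNFAIP3, the deubiquitinase A20, was tested in U87-MG with -0.20 (SE 0.23 with pairs). No inhibitor gene passed the thresholds in either line with or without pairs.

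TRAF3IP2 codes for Act1, the adaptor of the interleukin 17 receptor. Its brighter probe read -0.56, -0.02 and -0.30 on the A172 control arrays and -1.09, -0.48 and -0.44 on the siLINC00152 arrays. In U87-MG it read 1.39, 1.41, 2.49 and 1.42 on the control arrays and 1.21, 1.33, 2.10 and 1.21 on the siLINC00152 arrays. All 7 pairs were lower by small amounts, with fold changes of -0.38 (SE 0.13 with pairs, adjusted p = 0.296) and -0.22 (SE 0.11, adjusted p = 0.361). The other probe read -2.51, -3.38 and -3.27 on the A172 control arrays and -4.08, -4.99 and -5.89 on the siLINC00152 arrays, above background on 2 of 3 and 0 of 3. The groups did not overlap, and the control mean, with 1 of its 3 readings not above background, was 1.76-fold that of siLINC00152 arrays set at the lowest signal above background. This probe was not tested in A172, and in U87-MG, where it was above background on all arrays, its fold change was -0.08, with 2 pairs lower and 2 higher. TRAF1 and BIRC3, survival factors of TNF receptor signalling, were above background on no array.

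TNFAIP2 is a TNF-induced gene linked to membrane protrusions. It read 3.26, 2.51 and 2.56 on the A172 control arrays and 2.48, 1.61 and 1.70 on the siLINC00152 arrays. The groups met closely without overlapping, since set 1 was high in both. TNFAIP2 fell in the model with pairs (log2 fold change -0.84, SE 0.18, adjusted p = 0.0991, 3 of 3 pairs lower), against an adjusted p of 1.00 without pairs. With pairs the call was lost when any of the 3 A172 sets was left out and was made under 6 of the 8 other settings, with adjusted p from 0.000777 to 0.225. In U87-MG it read 3.24, 3.48, 1.09 and 3.29 on the control arrays and 3.35, 3.47, 1.98 and 3.38 on the siLINC00152 arrays, with set 3 low in both groups. The fold change there was 0.27 (SE 0.16 with pairs, adjusted p = 0.408), and 0.07 without set 3.

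PTX3, a secreted pattern recognition protein, read 3.01, -1.19 and 0.22 on the A172 control arrays and 2.31, -1.63 and -1.46 on the siLINC00152 arrays. The sets differed by far more than the treatments, and all 3 pairs were lower. The fold change was -0.94 with an SE of 1.13 without pairs and 0.27 with pairs, where the adjusted p was 0.207, just over the threshold. With pairs PTX3 was called in A172 with normexp (-0.69, adjusted p = 0.00442), with trend and robust variance, with the mean of tested probes and without set 3 of U87-MG, and its adjusted p reached 0.615 with the deposited values. Without set 3 of A172 the fold change with pairs was -0.57. In U87-MG it was 0.14 with 3 of 4 pairs lower, and -0.07 without set 3. ICAM1, an adhesion molecule for leukocytes, gave -0.13 in A172 and was above background on no U87-MG array.

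**Figure D4:**
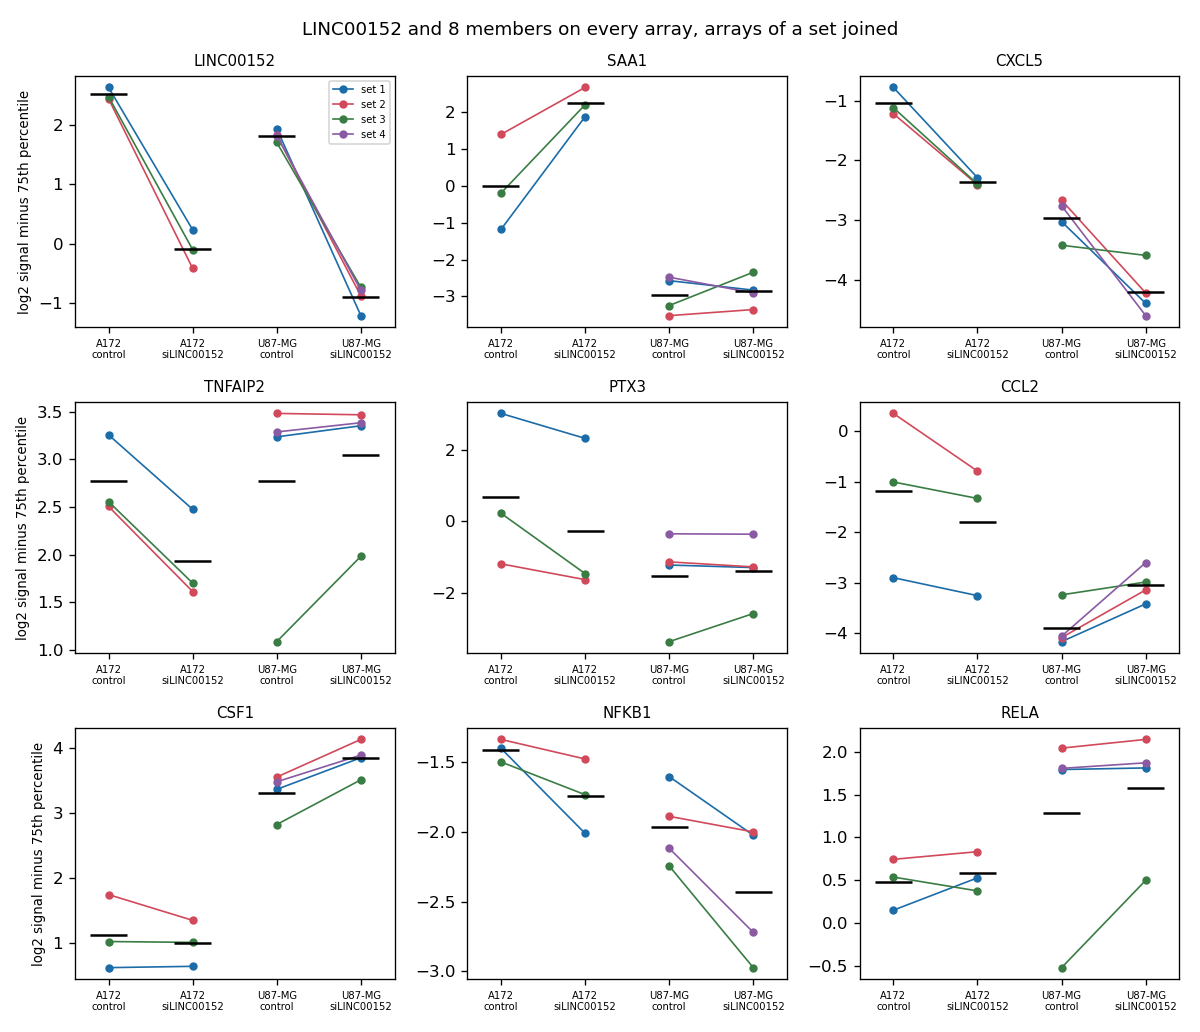
Log2 signal minus the 75th percentile (vertical axis) of LINC00152 and 8 members on each of the 14 arrays, with arrays of a set joined and group means as black bars. SAA1 is higher in 3 of 3 and CXCL5, TNFAIP2, PTX3 and CCL2 are lower in 3 of 3 A172 pairs, and CSF1 is higher in 4 of 4 U87-MG pairs.

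The effects in the lines were compared by the difference of the fold changes, over the 15 members tested in both. Without pairs 0 members differed, beside 2 of 21125 probes or 0.00947%, and 0 had an unadjusted p under 0.05, beside 0.791% of all probes. With pairs 0 members differed, beside 0.421% of probes, and 3 had an unadjusted p under 0.05, CSF1, PTX3 and TNFAIP2, beside 8.32% of all probes, with the lowest adjusted p at 0.262. This count of 0 depended on the settings, as 3 members differed with normexp (CSF1, PTX3 and TNFAIP2), 2 with trend and robust variance (CSF1 and TNFAIP2) and 1 without set 3 of U87-MG (TNFAIP2), beside 2.18%, 1.71% and 0.497% of all probes. The calls of SAA1 and CXCL5 in A172 could not be set against U87-MG, where neither gene was tested.

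The other genes of the route were taken from further lists. Of 35 NF-kB signalling proteins, 23 were tested in A172 and 21 in U87-MG. With pairs 3 of these fell and 0 rose in A172, beside 2.18% and 1.09% of all probes. In U87-MG 3 fell and 1 rose, beside 2.08% and 2.12%. IKBKE, a kinase related to the inhibitor kinases, was the 1 gene called without pairs, beside 0.184% of all probes. It fell in A172 at -1.56 (SE 0.34, adjusted p = 0.199), just under the threshold. Of 11 alternatives, which include the model with pairs, 2 made this call, with adjusted p from 0.0303 to 0.427. The lower of these values is that of the model with pairs. With pairs IKBKE fell in both lines, at -1.56 (adjusted p = 0.0303) and -0.97 (adjusted p = 0.0954). Over the 8 other settings with pairs IKBKE was called in 8 in A172, with fold changes from -1.56 to -0.62, and in 5 in U87-MG, from -0.97 to -0.26. The A172 call was lost without set 3 of A172, and the U87-MG call without set 1, 2 or 4 of U87-MG. IKBKB, the main catalytic subunit of the inhibitor kinase, also fell in both with pairs, at -0.88 in A172 (SE 0.11, adjusted p = 0.0158, 3 of 3 pairs) and -0.69 in U87-MG (SE 0.10, adjusted p = 0.0368, 4 of 4 pairs). Without pairs IKBKB was called in neither line, and its SE in A172 was 0.29. Of the 11 alternatives, which include the model with pairs, 2 called it in A172 and 1 in U87-MG. Over the 8 other settings with pairs, IKBKB was called in 8 in A172 and in 7 in U87-MG, with fold changes from -0.94 to -0.64 and from -0.69 to -0.32. MAP3K7, the kinase TAK1, fell in A172 with pairs (-0.80, adjusted p = 0.153), with 3 control and 2 siLINC00152 arrays above background. In U87-MG the ubiquitin ligase BIRC2 rose with pairs (0.75, adjusted p = 0.166, and 1.00 without pairs), where set 3 stood out among pairs of 0.52, 0.32, 1.67 and 0.48, and TAB3, a partner of TAK1, fell with pairs (adjusted p = 0.0105). Of the 4 arrays a group, 3 control arrays and 1 siLINC00152 array had the TAB3 probe above background, so the fold change of -1.43 is set against a group mostly not well above background, and another TAB3 probe, above background on 3 and 2 arrays, gave -0.57 (adjusted p = 0.136). In A172, where both probes were above background on all arrays and lower in 3 of 3 pairs, that other probe was called with pairs (-0.77, adjusted p = 0.110) and the brightest was not (-0.52, adjusted p = 0.252).

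Of 23 receptors for the ligands, 18 were tested in A172 and 16 in U87-MG. With pairs 1 of these rose in A172 and 2 in U87-MG, beside 1.09% and 2.12% of all probes, and 0 fell. IL11RA, the interleukin 11 receptor, rose with pairs in both lines, at 0.52 (adjusted p = 0.153) and 0.81 (adjusted p = 0.0352). The LIF receptor LIFR rose in U87-MG with pairs (1.05, adjusted p = 0.0783) and had the largest fold change of the tested receptors in both lines, -0.54 in A172, where it was not called. Of 32 further NF-kB target genes, 23 and 21 were tested. With pairs 4 of these fell and 0 rose in A172, beside 2.18% and 1.09% of all probes. In U87-MG 1 fell and 2 rose, beside 2.08% and 2.12%. With pairs BCL2L1, VEGFC and PLAU fell in A172, with log2 fold changes of -0.56, -1.08 and -0.71. EBI3 also fell there (adjusted p = 0.0561), with 3 control arrays and 1 siLINC00152 array above background, so its fold change of -0.90 is likewise set against dim readings. In U87-MG PLAU (1.47) and CD83 (0.63) rose and CCL4 (-0.69) fell with pairs. Of the 8 glioma and astroglial markers, 5 were tested in A172 and 3 in U87-MG. CD44 was the 1 called with pairs. It fell in A172 by its brightest probe (-1.13, adjusted p = 0.00805), beside 2.18% of all probes. The other tested CD44 probe gave -0.24 (adjusted p = 0.694, 2 of 3 pairs lower).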

How the data were processed

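The authors deposited the spot intensity of every array as scanner output of Agilent Feature Extraction 11.5.1.1, and a table of log2 values normalized between arrays, whose ranks match the processed signal within each array and whose column medians lie between 4.49 and 4.56. Other columns of the deposited scanner output used here are flags and probe names. Processed signals were put on the log2 scale, scaled by subtracting the array's 75th percentile (58717 non-control spots), and a probe took the mean of its spots that were not flagged as outliers. No spot was saturated and no arrays were identical. A probe was above background when at least 0.5 of its spots were, and the number of arrays limits the precision. Probes were named through RefSeq GRCh38.p14 accessions.

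The tests used lmFit and eBayes of limma 3.58.1 under R 4.3.3, with 4 group means and Benjamini-Hochberg adjustment within a line. The code was run on simulated data as a check. The planted effects were larger than the fold changes of CXCL5, TNFAIP2 and CSF1, so the check cannot speak to calls of that size. Arrays were paired by set number. Deviations from group means correlated at 0.675 to 0.794 within A172 sets and 0.373 to 0.864 within U87-MG sets, against -0.701 to -0.0434 and -0.772 to 0.411 between sets. Subtracting the mean of so few arrays itself pushes the correlations between sets down, and the U87-MG ranges overlapped. Each A172 set was also 1 slide, so set and slide cannot be told apart there. These values therefore describe the pairing and do not establish it. Values on every array are given for LINC00152, TRAF3IP2, SAA1, called members and, per line, the 5 members with the largest fold change that moved the same way in every pair. Of the other lists the counts and called genes are named with fold changes. Members and lists were chosen with earlier results of these data known. Alternatives were normexp (offset 50, on the median signal), quantile normalization, the deposited values, filters, flags, slide or set as a block, trend and robust variance, an FDR of 0.05, probe means, single lines and arrays left out.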

Additional observations from a re-analysis of the deposited data

Results flagged for a closer look

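Samples far from the others of their group were looked for in the U87-MG groups of 4, as the gap to the nearest array over the range of the group, and chance alone marks about 1 in 20 groups. The brightest probes of LINC00152, of the tested members and of the genes of other lists called in U87-MG with pairs made 52 groups, of which 7 were marked. All but 1 were arrays of set 3: RELA in the control group at -0.52 (gap over range 0.902), TNFAIP3 in the control group at -3.36 (0.851), TRAF3IP2 in the control group at 2.49 (0.981) and in the siLINC00152 group at 2.10 (0.861), and TNFAIP2 in the control group at 1.09 (0.897) and in the siLINC00152 group at 1.98 (0.922). The exception was CD83 in the siLINC00152 group, where set 4 lay at -0.21 (0.907). The set 3 arrays also had the lowest shares of spots above background of their groups, 35.7% and 40.4%, and the part of this in the values was not tested.

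Over the probes of all lists tested in both lines, 8 probes of as many genes, none of them a member, were marked because every A172 pair moved one way and every U87-MG pair the other, or because the difference between the lines passed the thresholds with pairs. The A172 fold change less the U87-MG one passed them for the brightest probes of CD44 at -1.25 (adjusted p = 0.0859) and PLAU at -2.18 (0.0411) and for the other probe of IER3 at 0.92 (0.187), and the pairs of PLAU and IER3 were also opposite. The other CD44 probe gave -0.44 (0.602) and the brightest IER3 probe 0.72 (0.467). Opposite pairs alone marked BCL2L1 at -0.81 (0.249), LIFR at -1.59 (0.207), TNFRSF1A at -0.71 (0.356), CXCR3 at -0.30 (0.685) and 1 of the IL6ST probes at -0.48 (0.583), and these differences did not pass. Another CXCR3 probe gave 0.20 (0.809), and the brightest IL6ST probe, lower in 3 of 3 A172 and 3 of 4 U87-MG pairs, gave 0.0020 (0.998).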

How the results depend on the processing

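The set number as a replicate block gave 3 member calls for A172, 1 for U87-MG and 0 for the difference between the lines, against 0, 0 and 0 without it, and the block changed no other call of a member. Without pairs, the A172 count was 2 with normexp (CXCL5 and SAA1) and 2 with the mean of all tested probes (CXCL5 and SAA1). It was also 2 with the mean of probes tested in either line (CXCL5 and TRAF3IP2). That alternative was chosen after seeing the data and takes in the TRAF3IP2 probe not tested in A172. With arrays left out in turn and no pairs, the A172 count was 0 to 1 (SAA1 without control set 2 of A172, CXCL5 without either array of set 3 of U87-MG). The slide as a block pairs the A172 arrays by set and leaves the U87-MG arrays unpaired. With it the A172 count was 1 (SAA1), and CXCL5 and TNFAIP2 were not called. The settings combined with pairs were also chosen after seeing the data. There the A172 count was 4 with normexp, with trend and robust variance, with the mean of all tested probes and without set 3 of U87-MG (PTX3 added in each), 2 with quantile normalization and 2 with the deposited values (SAA1 and TNFAIP2 in both, CXCL5 lost), 1 with no filter on dim probes, 1 at an FDR of 0.05 and 5 with probes tested in either line. The CXCL5 fold change with pairs was -0.59 to -1.33 over the settings, and the median A172 fold change of tested members was -0.023 with normexp, against -0.13. Normexp also shrank fold changes that were not called with pairs, to -0.14 and -0.10 for NFKB1 in A172 and U87-MG, -0.25 and -0.12 for TRAF3IP2, -0.26 for CCL2 in A172, and 0.16 for RELA and -0.17 for CXCL2 in U87-MG. The U87-MG count was 2 with quantile normalization, 2 with flagged spots kept (CSF1 and NFKB1 in both), and 0 with no filter, 0 at an FDR of 0.05 and 0 with either mean of probes. Members differing between the lines numbered 3 with normexp (CSF1, PTX3 and TNFAIP2) and 2 with trend and robust variance (CSF1 and TNFAIP2), beside 2.18% and 1.71% of all probes, against 0 members and 0.421%. The share of all probes called with pairs in A172 was 2.24% with normexp, 3.76% with trend and robust variance, 5.05% without set 3 of U87-MG, 2.67% with quantile normalization and 2.40% with the deposited values, against 3.27%, and 1.16% with no filter and 0.955% at an FDR of 0.05. In U87-MG it was 0.64% with normexp, 5.86% with trend and robust variance and 2.89% with the deposited values, against 4.20%. The U87-MG share was 3.51% with quantile normalization and 4.18% with flagged spots kept, and 0.653% and 0.512% with no filter and at an FDR of 0.05. Without set 2 or set 3 of A172 it was 1.9% and 2.01%. With an A172 set left out the A172 share was 0.794% to 1.17%, and with set 1, 2 or 4 of U87-MG left out the U87-MG share was 0.434% to 0.83%. With sets left out in turn, the A172 count was 0 to 4, the U87-MG count 0 to 1 (LIF, not CSF1, without set 3) and the count of differences 0 to 1 (TNFAIP2 without set 3 of U87-MG). Members higher in every U87-MG pair numbered 1 with quantile normalization and 1 with the deposited values, against 2. Fold changes that turned sign were not called. With arrays left out they ran from -0.29 to 0.63 for TNFAIP2, -0.47 to 0.54 for PTX3, -0.43 to 0.055 for TRAF3IP2 and -0.30 to 0.66 for RELA in U87-MG, and in A172 from -2.23 to 0.22 for PTX3, -1.46 to 0.16 for CCL2, -0.38 to 0.18 for CSF1, -0.062 to 0.24 for RELA and -0.25 to 0.18 for CXCL2. With pairs and sets left out they ran from -0.074 to 0.14 for PTX3 in U87-MG, and in A172 from -0.20 to 0.0037 for CSF1, -0.036 to 0.23 for RELA and -0.064 to 0.063 for CXCL2. PTX3 in U87-MG was -0.018 with normexp, with or without pairs. The cause was not tested. With 3 and 4 arrays a group and U87-MG signals closer to background, members dim in U87-MG had no test there.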
